A study of Mus musculus with 6 samples.

Results

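The immediate early genes examined here are 10 transcription factors and regulators, Fos, Fosb, Jun, Junb, Egr1, Egr2, Ier2, Nr4a1, Nr4a2 and Atf3. They were taken by name from the array annotation as every probe set assigned to one of them alone. This gave 17 of the 45037 probe sets tested, or 10 of 18193 genes, and 0 probe sets shared a member with another gene. The series compared embryonic hearts of Sp3 knockout mice with wildtype hearts at stage E12.5. Each of the 6 arrays was labelled as a heart sample, 3 of Sp3 knockout and 3 of wildtype embryos, with the letters a to c in either group. The labels give no treatment for either group, and the Sp3 allele, the strain and the sex of the embryos are not given in the sources used here. The values are the deposited intensities, in linear units, and their log2.

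Immediate early genes are switched on within minutes of a growth factor, a calcium signal, stretch or injury, without new protein synthesis. MAP kinases and calcium signals act on SRF with its Ets partners at CArG boxes and on CREB at cyclic AMP response elements, and the transcripts are short-lived. The products are mostly transcription factors, so a brief signal becomes a change in gene expression, and tissue handling also induces them. Sp3, the deleted factor, is a zinc finger protein that binds GC boxes, which are common in promoters of this class. Mouse embryos without Jun have defects of the cardiac outflow tract, those without Junb have vascular defects, and Egr1 responds to mechanical load.

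The Sp3 probe set had 336, 324 and 392 intensity units in knockout arrays a, b and c, against 935, 871 and 742 units in wildtype arrays a, b and c. It fell by 1.27 on the log2 scale, with limma adjusted p = 0.00254, in the direction of the labels at the part of the transcript that it reads. Markers of the labelled tissue were mostly low. Of 14 heart muscle markers 11 were under the median over all genes, while the median of 10 measured hepatocyte markers was at the 99.3th percentile and that of 10 erythroid markers at the 95.7th. All 6 arrays are called hearts below only as their labels do. Median intensity per array ran from 22.5 to 26.7 units, and the number of arrays limits the precision.

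The RefSeq promoter windows of 4 members are printed because Sp3 acts at GC boxes and because Jun, Junb and Nr4a2 each have a probe set in which the groups do not overlap. Fos is the model gene of the class. Each window holds 250 bases before and 50 after the annotated start, in GRCm38.p6, 5′ to 3′ on the gene's own strand. Capitals mark every match, on either strand, to the GC box GGGCGG, the cyclic AMP response element core TGACG, the EGR site GCGNGGGCG or TATAAA. The Jun window is chr4:95052173-95052472 on the minus strand, that of Junb chr8:84978699-84978998 on the minus strand, that of Nr4a2 chr2:57123954-57124253 on the minus strand, and that of Fos chr12:85473640-85473939 on the plus strand.
Jun: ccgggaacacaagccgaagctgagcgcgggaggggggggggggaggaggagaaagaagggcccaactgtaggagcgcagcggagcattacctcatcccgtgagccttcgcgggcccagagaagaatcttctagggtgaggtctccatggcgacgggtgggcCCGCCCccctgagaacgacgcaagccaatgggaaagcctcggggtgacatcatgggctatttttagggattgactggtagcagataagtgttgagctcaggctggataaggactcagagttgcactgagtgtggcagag
Junb: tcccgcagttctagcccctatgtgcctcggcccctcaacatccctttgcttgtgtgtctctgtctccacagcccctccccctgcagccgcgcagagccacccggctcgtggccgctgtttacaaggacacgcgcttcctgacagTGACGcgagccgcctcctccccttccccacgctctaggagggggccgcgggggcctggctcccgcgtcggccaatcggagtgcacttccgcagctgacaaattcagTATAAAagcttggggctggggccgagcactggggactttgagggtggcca
Nr4a2: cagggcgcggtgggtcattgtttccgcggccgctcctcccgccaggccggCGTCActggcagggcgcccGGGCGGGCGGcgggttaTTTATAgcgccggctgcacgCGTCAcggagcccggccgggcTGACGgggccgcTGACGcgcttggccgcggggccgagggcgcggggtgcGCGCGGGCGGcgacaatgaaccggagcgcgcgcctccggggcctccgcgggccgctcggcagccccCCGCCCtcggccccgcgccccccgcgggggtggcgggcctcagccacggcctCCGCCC
Fos: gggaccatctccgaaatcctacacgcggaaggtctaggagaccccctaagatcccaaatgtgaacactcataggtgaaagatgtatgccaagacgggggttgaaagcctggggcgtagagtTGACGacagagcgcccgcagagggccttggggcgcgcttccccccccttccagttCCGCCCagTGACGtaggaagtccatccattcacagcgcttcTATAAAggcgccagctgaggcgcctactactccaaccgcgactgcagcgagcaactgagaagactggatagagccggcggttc

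Windows were found for 8 of the 10 members, all but Egr1 and Ier2. The GC box was in 7 of the 8, all but Junb, and in 35.9% of the 27025 promoter windows of all genes. The Nr4a2 and Atf3 windows held 5 GC boxes each, that of Egr2 held 4, and those of Fosb and Nr4a1 held 3 each. The Jun and Fos windows held 1 each. Egr2 has 5 listed windows, of which only the first was read. In Nr4a2, Fosb and Nr4a1 1 GC box overlapped the EGR site. Whether these counts go with the group differences was not tested. The core TGACG was in 6 of the 8, and in 21.0% of all windows. The full element TGACGTCA and the CArG box were in 0 of the 8, against 1.88% and 1.57% of all windows. Sites more than 250 bases before the start, and any of Egr1 and Ier2, were not read. The EGR site was in the windows of Nr4a2, Fosb and Nr4a1, and in 5.55% of all windows. TATAAA was in those of Nr4a2, Junb and Fos, and in 14.2% of all windows. It lay at positions -33 to -28 from the annotated start in Fos and at 0 to 5 in Junb. In Nr4a2 it lay at -164 to -159, on the opposite strand. The 8 windows were rich in G and C, between 58.7% and 81.7% with a median of 66.8%, where the median of all windows was 52.7%. A match describes these letters only, and no binding was measured.

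All 10 genes had a higher mean in Sp3 knockout than in wildtype hearts at their probe set of highest mean level (9 of 10, all but Atf3, after quantile normalization or median centring), but no difference passed the test. The members were chosen with earlier results of these data known, so their count and median are given only as a description. The median over the 10 was a log2 difference of 0.59, beside -0.02 over all 18193 genes, and 47.5% of all genes were above 0. This median was 0.29 with 16 units added before log2, 0.39 without wildtype b and 0.41 with the mean over each gene's probe sets. The probe set chosen for Nr4a2 has the highest mean only through its knockout values. With the probe set of highest wildtype mean, chosen once the values were known, 9 of 10 were higher, Nr4a2 was at -0.90 and the median was 0.49. Over all 17 probe sets 14 were higher and 3 lower, where 52.2% of all probe sets were higher, and the member median was 0.28. Limma with a variance trend over intensity called 0 of the 17 at an adjusted p under 0.05, where 0.0311% of all probe sets were called. The smallest member adjusted p was 0.529. An unadjusted p under 0.05 was found for 2 of the 17, Jun and Nr4a2 at 1 probe set each, beside 7.16% of all probe sets. Limma without the trend called 0 of all probe sets, 0.0% of them, and gave an unadjusted p under 0.05 to 2 of the 17, beside 5.99% of all. The knockout arrays lay above all wildtype arrays at 4 of the 17 probe sets, those of Jun, Junb, Ier2 and Nr4a2, and below them at 0. Over all probe sets 6.15% were so placed with knockout higher and 6.89% with knockout lower. An exact two-sided permutation test of 3 arrays against 3 cannot go below p = 0.1. In bulk RNA, fewer cells of a type and less RNA per cell cannot be told apart.

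**Figure D1:**
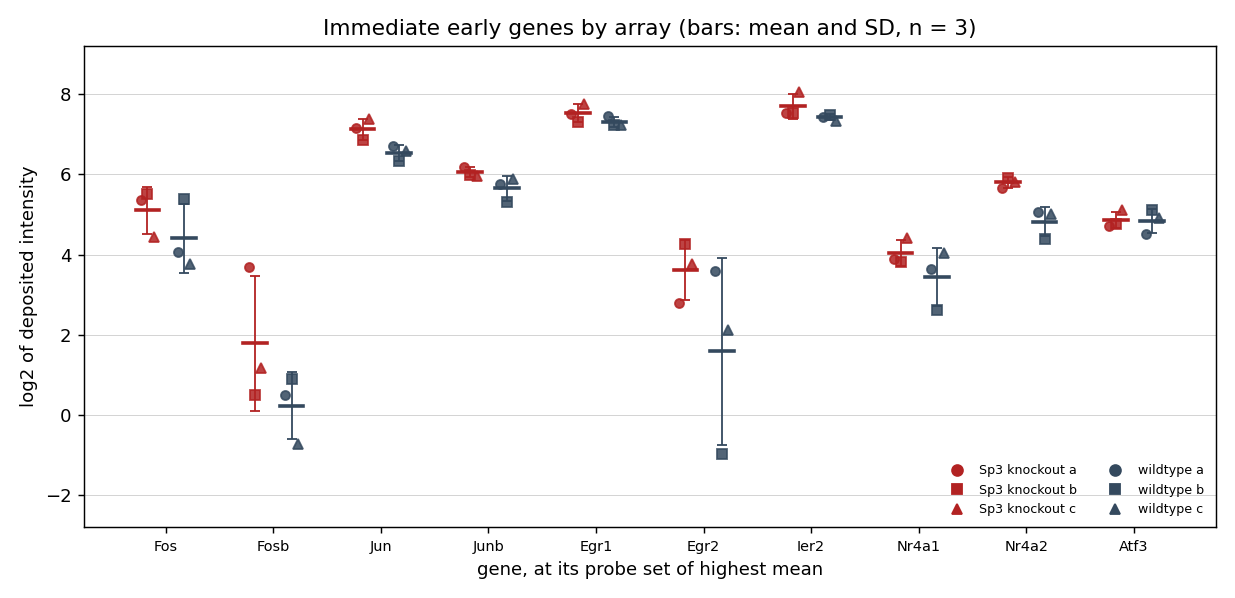
Log2 of the deposited intensity of the 10 genes in each array, at the probe set of highest mean; Sp3 knockout (red) stands left of wildtype (dark), symbols mark the letters, and bars give the mean and SD of 3 arrays. The knockout points lie above every wildtype point for Jun, Junb, Ier2 and Nr4a2 and overlap them for the other 6 genes.

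Among the AP-1 factors, which pair as dimers of a Jun with a Fos or ATF protein, Jun had the smallest p of the 5 members in this family. Jun, the central dimer partner, had 142, 115 and 165 units in knockout arrays a, b and c, against 105, 79.9 and 96.6 units in wildtype at its probe set 1417409_at. The lowest knockout array lay above the highest wildtype array. The log2 mean was 7.12 ± 0.26 in the knockout arrays, against 6.54 ± 0.20 in wildtype (SD over 3 arrays each), a difference of 0.58 with a standard error of 0.19. Its unadjusted limma p was 0.0102 and its adjusted p 0.608. Leaving out each array in turn gave differences from 0.46 to 0.72.

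The other Jun probe set, 1448694_at, is assigned to the same transcript record and did not separate the groups. It had 69.0, 103 and 102 units in knockout, against 86.2, 62.5 and 76.0 in wildtype. Knockout a lay below 2 of the wildtype arrays, while knockout b and c lay above all 3. The log2 difference was 0.28 with a standard error of 0.22 and a limma adjusted p of 0.799. Wildtype b was the lowest of the 6 arrays at both Jun probe sets.

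Junb, a Jun relative that can restrain Jun activity, had 72.8, 63.3 and 62.7 units in knockout, against 54.3, 39.3 and 59.5 units in wildtype. The groups did not overlap, though knockout c and wildtype c lay close together and wildtype b was the lowest. The log2 difference was 0.40 with a standard error of 0.24 and a limma adjusted p of 0.744, and it was 0.22 without wildtype b.

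Fos, the partner that gives the class its best-known dimer, had 41.4, 45.4 and 21.8 units in knockout, against 16.7, 41.7 and 13.6 units in wildtype. The groups overlapped: wildtype b stood with knockout a and b, and knockout c stood nearer to wildtype a and c. Its log2 difference was 0.70 with a standard error of 0.46 and a limma adjusted p of 0.762. It was 1.19 without wildtype b and 0.39 without wildtype c.

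Fosb, a Fos relative with an activity-induced truncated form in neurons, was read at the dim end of the scale. It had 12.9, 1.42 and 2.25 units in knockout, against 1.42, 1.86 and 0.609 units in wildtype. Knockout a alone stood high. The log2 difference of 1.56, with a standard error of 1.08 and a limma adjusted p of 0.769, is therefore not an exact size. It was 0.28 with 16 units added before log2 and 0.61 without knockout a.

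Atf3, a stress-induced ATF factor that pairs with Jun proteins, had 26.4, 27.3 and 34.2 units in knockout, against 22.9, 34.2 and 29.8 units in wildtype. The groups overlapped throughout. Between group means the log2 difference was 0.03, with a standard error of 0.32 and a limma adjusted p of 0.992, and it was -0.06 after quantile normalization and -0.05 after median centring.

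The EGR factors are zinc finger proteins that bind GC-rich sites close to those of Sp factors. Egr1, which responds to growth factors and shear stress, had 182, 157 and 216 units in knockout, against 175, 151 and 151 units in wildtype. Knockout b lay below wildtype a, so the groups overlapped, and knockout c was the highest of the 6. On the log2 scale the difference was 0.21 with a standard error of 0.16 and a limma adjusted p of 0.791, and it was 0.09 without knockout c.

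Egr2, a factor of hindbrain, Schwann cells and lymphocytes, was dim in these arrays. At its probe set of higher mean, 1427683_at, it had 6.95, 19.1 and 13.6 units in knockout, against 12.2, 0.512 and 4.38 units in wildtype. Wildtype b lay far below the others, and wildtype a lay above knockout a. The log2 difference was 2.02 with a standard error of 1.14 and a limma adjusted p of 0.739, and it was 0.74 without wildtype b and 0.44 with 16 units added. At 1427682_a_at every array was at or below 3.61 units, and the log2 difference was 0.01 with a standard error of 1.09.

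**Figure D2:**
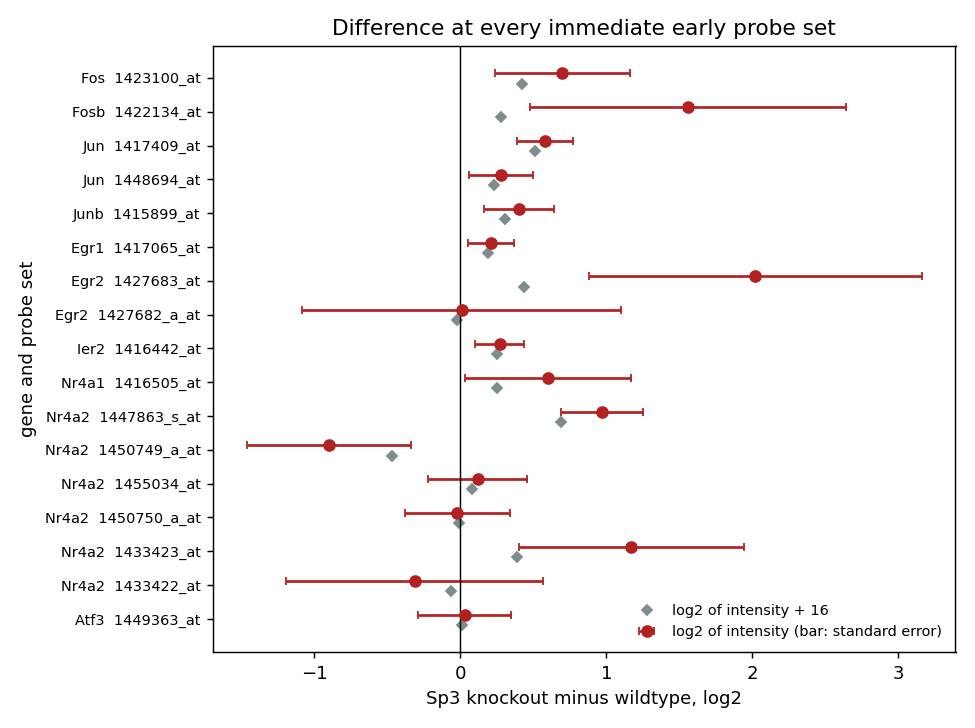
Sp3 knockout minus wildtype difference, on the log2 scale, for every probe set of the 10 genes (red, with the standard error of the limma fit), and after 16 units were added to each intensity (grey). The Egr2 and Fosb differences of 2.02 and 1.56 were 0.44 and 0.28 with the units added, while Jun at 0.58 was at 0.51.

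Ier2, a small nuclear protein with no DNA-binding domain of the usual families, had 183, 183 and 264 units in knockout, against 174, 179 and 163 units in wildtype. The groups did not overlap, but knockout a and b lay close to the wildtype arrays and knockout c stood above all others. The log2 difference was 0.27 with a standard error of 0.17 and a limma adjusted p of 0.751. It was 0.09 without knockout c, and the groups overlapped after median centring.

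The Nr4a factors are orphan nuclear receptors that act without a known ligand. Nr4a1, induced by growth factors and in activated lymphocytes, had log2 levels of 3.89, 3.82 and 4.42 in knockout, against 3.64, 2.63 and 4.05 in wildtype. Wildtype c lay above knockout a and b, and wildtype b was the lowest array. Its log2 difference was 0.60 with a standard error of 0.57 and a limma adjusted p of 0.832, and it was 0.20 without wildtype b.

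Nr4a2, best known for its part in midbrain dopamine neurons, had the smallest p of all members, and its 6 probe sets did not move together. At 1447863_s_at it had 50.8, 60.6 and 55.6 units in knockout, against 33.5, 21.1 and 31.9 units in wildtype. The 3 knockout arrays lay close together and well above all 3 wildtype arrays. The log2 mean was 5.79 ± 0.13 in the knockout arrays, against 4.82 ± 0.37 in wildtype (SD over 3 arrays each), a difference of 0.97 with a standard error of 0.28. The unadjusted limma p was 0.00449 and the adjusted p 0.529. With each array left out the difference lay between 0.76 and 1.10.

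The other 5 Nr4a2 probe sets had log2 differences between -0.90 and 1.17, none past the test. The probe set 1450749_a_at had 30.1, 38.6 and 6.70 units in knockout, against 35.2, 32.7 and 44.2 units in wildtype. Knockout c alone was low there, so the difference of -0.90, with a standard error of 0.56, was -0.12 without that array. The probe set 1433423_at had log2 levels of 4.37, 3.37 and 3.45 in knockout, against 1.86, 3.77 and 2.05 in wildtype, and wildtype b lay above knockout b and c. Its log2 difference was 1.17 with a standard error of 0.77. Differences at 1455034_at, 1450750_a_at and 1433422_at were 0.12, -0.02 and -0.31, with standard errors of 0.34, 0.36 and 0.88. Averaged over the 6 probe sets, Nr4a2 differed by 0.17. The annotation gives no transcript record for 1447863_s_at, and the suffix s marks probes that can match more than 1 transcript, so whether it reads Nr4a2 alone was not tested.

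**Figure D3:**
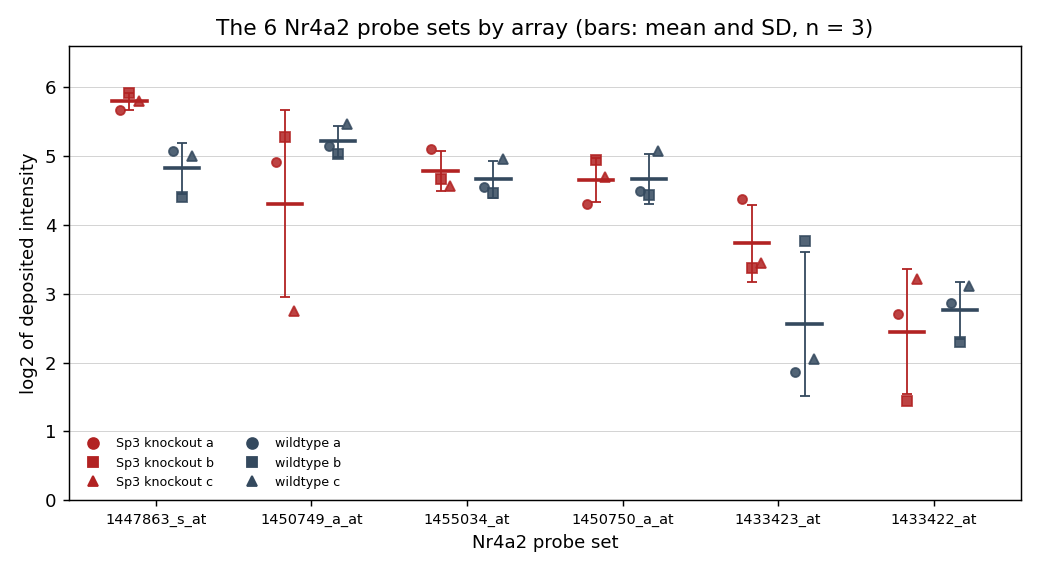
Log2 of the deposited intensity at the 6 Nr4a2 probe sets in each array; Sp3 knockout (red) stands left of wildtype (dark), and bars give the mean and SD of 3 arrays. The groups separate at 1447863_s_at, at 5.79 in knockout and 4.82 in wildtype, and overlap at the other 5 probe sets.

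Across arrays the 10 genes did not rank the arrays alike. The member level is the mean over the 10 genes of each log2 value minus that gene's mean over all arrays. Knockout a, b and c had member levels of 0.46, 0.25 and 0.39, against -0.12, -0.61 and -0.37 in wildtype. Wildtype b was the lowest array for 6 of the 10 genes and the highest for 1, Atf3. Knockout c was the highest for 4, knockout b for 3 and knockout a for 2. Without wildtype b the median log2 difference of the 10 genes was 0.39 instead of 0.59, and 10 of 10 stayed above 0. Over the 45 pairs of members the correlation across the 6 arrays was above 0 in 35, with a median of 0.456 and a range from -0.513 to 0.886. Over the 7 genes in the brighter 5 of 10 classes of level, 16 of 21 pairs were above 0 and the median was 0.212. These correlations describe 6 arrays shared by all genes and include the difference between the groups.

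Dim probe sets gave the widest spread. In 10 classes of all probe sets by level, the median residual SD on the log2 scale was 1.27 in the dimmest and 0.125 in the brightest. Fosb and 1 Egr2 probe set lay in the dimmest class, and the other Egr2 probe set in the third. Jun, Egr1 and Ier2 lay in the eighth and ninth classes. The log2 median over the 10 genes was 0.29 with 16 units added, which weighs dim values less.

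Marker lists of several cell types also differed in level between arrays. Heart muscle markers were higher in knockout for 11 of 14 genes, with mean log2 levels from 4.56 to 4.90 in knockout and from 3.51 to 4.21 in wildtype, and none was listed at 0. Most of these markers were dim, with 11 of 14 under the median over all genes. The median log2 difference of the list was 0.98, and 0.41 with 16 units added. Without wildtype b it was 0.65, and 10 of 14 were higher. With the dimmest 40% of probe sets left out, 6 markers were kept, of which 6 were higher, with a median of 1.16. Levels of this list were 0.55, 0.20 and 0.43 in the knockout arrays, against -0.14, -0.85 and -0.19 in wildtype, with wildtype b lowest as for the members. Leukocyte markers were lower for 11 of 12, with mean levels from 6.28 to 7.28 in knockout and from 7.33 to 7.53 in wildtype, and knockout c was lowest. The median log2 difference of the leukocyte list was -0.52, and -0.34 without knockout c, where 4 of 12 were higher. Hepatocyte markers were lower for 9 of 10, at 11.17 to 11.28 in knockout and 11.22 to 11.50 in wildtype. Erythroid markers were lower for 9 of 10, at 9.34 to 10.04 in knockout and 9.88 to 10.18 in wildtype. Knockout c was the lowest array for them too. Their median log2 difference was -0.31, and -0.06 without knockout c. Fibroblast and mesenchyme markers were higher for 9 of 12, at 8.33 to 8.53 in knockout and 7.91 to 8.36 in wildtype, and endothelial markers for 7 of 12, at 6.64 to 6.84 and 6.65 to 6.76. Their part in the member differences was not tested.

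**Figure D4:**
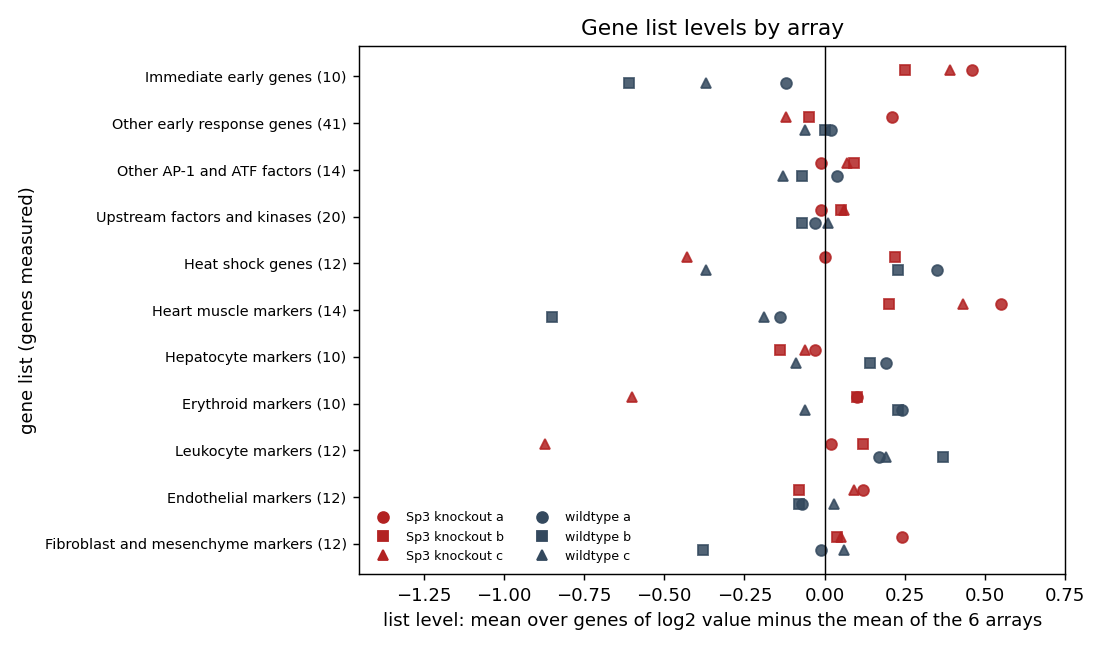
Level of each gene list in each array, as the mean over its genes of the log2 value minus that gene's mean over the 6 arrays; Sp3 knockout (red) is drawn above wildtype (dark) in each row, and the number of genes measured is in brackets. The immediate early genes lay between 0.25 and 0.46 in knockout and between -0.61 and -0.12 in wildtype, and the other early response genes between -0.12 and 0.21 and between -0.06 and 0.02.

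The wider early response was split in direction. Of 41 other early response genes, 19 were higher and 22 lower, with a median log2 difference of -0.04, and without knockout c 23 were higher with a median of 0.05. Other AP-1 and ATF factors were higher for 9 and lower for 5 of 14 measured, with a median of 0.07, which was -0.01 after median centring and 0.16 without wildtype a. Upstream factors and kinases, among them SRF, the Ets partners Elk1, Elk3 and Elk4, and CREB, were higher for 11 and lower for 9 of 20 measured, with a median of 0.10, which was 0.03 after median centring or without knockout c. Heat shock genes, which handling and heat induce, were higher for 2 and lower for 10 of 12 measured, with a median of -0.08, which was -0.04 without knockout c. Without knockout b and without wildtype c 0 were higher, with medians of -0.18 and -0.26. The heat shock level by array was 0.00, 0.22 and -0.43 in knockout, against 0.35, 0.23 and -0.37 in wildtype, so the arrays lettered c were lowest in both groups. Its part in the member differences was not tested. Of these 87 genes, 0 passed, the smallest limma adjusted p was 0.562, and 7 had an unadjusted p under 0.05, or 8.05%, close to the 8.71% of all genes. No test compared the 10 genes with these lists.

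By smallest unadjusted p the leading higher genes were Atf5, Ccn1, Ccn2, Plk2 and Jund. Atf5, an ATF factor of stress responses, had 148, 149 and 163 units in knockout, against 91.1, 124 and 97.1 units in wildtype. Ccn1, a secreted matrix protein that is also a target of SRF and YAP, had 57.0, 71.7 and 71.6 units in knockout, against 48.9, 38.0 and 30.5 units in wildtype. Ccn2, its relative, had 101, 81.5 and 93.2 units in knockout, against 60.6, 56.6 and 67.7 units in wildtype. In these 3 the groups did not overlap, and the log2 differences were 0.57, 0.79 and 0.58. Plk2, a polo-like kinase, and Jund, the more constant Jun relative, had differences of 0.54 and 0.32, also with no overlap. Unadjusted p for the 5 ran from 0.0065 to 0.0274 and limma adjusted p from 0.562 to 0.665. Choosing the smallest p in each direction favours groups with no overlap. Of the 87 genes in the related and handling lists, 7 had no overlap with knockout higher and 6 with knockout lower. Over all 18193 genes these counts were 1096 and 1644.

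The leading lower genes were Klf2, Hspb1, Mafk, Hsph1 and Crtc2. Klf2, a flow-responsive factor of endothelium and erythroid cells, had 44.5, 22.6 and 26.8 units in knockout, against 58.5, 43.5 and 48.7 units in wildtype. Only knockout a reached into the wildtype range, and the log2 difference was -0.73. Crtc2, a coactivator of CREB, had 21.8, 23.4 and 25.0 units in knockout, against 43.5, 27.4 and 35.5 units in wildtype, a log2 difference of -0.58 with no overlap. Hspb1 and Hsph1, heat shock proteins, differed by -0.62 and -0.49, and Mafk, a small Maf factor, by -0.30, with overlapping groups. Limma adjusted p for the 5 ran from 0.680 to 0.733.

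The genes most like the members across arrays were sought among 9092 genes above the median level, by Pearson correlation with the member level over 6 arrays. The 5 highest were Ift22 at 0.992, Zfp955a at 0.990, Rftn1 at 0.989, Arl2 at 0.986 and Cav1 at 0.982. Rftn1, a lipid raft protein, had 157, 123 and 141 units in knockout, against 93.4, 70.4 and 86.5 units in wildtype. Cav1, the coat protein of caveolae, had 171, 143 and 138 units in knockout, against 111, 78.1 and 90.5 units in wildtype. As the choice by likeness to the member level sets, both were higher in every knockout array and had wildtype b lowest. They had log2 differences of 0.75 and 0.70 and limma adjusted p of 0.4 and 0.481. For Ift22, Zfp955a and Arl2 the differences were 0.21, 0.23 and 0.19. These are the highest of 9092 correlations over 6 arrays, given as a description.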

How the data were processed

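The authors deposited 1 linear intensity per probe set and array. GCOS and RMA are listed, per the submitters' processing notes, and which of them gave these values is not known. Groups and letters came from the sample titles. The 64 control probe sets were left out and log2 was taken with no further normalization. Limma 3.58.1 in R 4.3.3 was run with lmFit and eBayes, with a variance trend and robust estimation, on 45037 probe sets with group as the only term. Tests were two-sided. A call needed an adjusted p (Benjamini-Hochberg, all probe sets) under 0.05. Of the probe sets 34945 have 1 annotated gene, 932 have several and 9160 have none. Of those with 1 gene, 34741 matched a GRCm38.p6 gene identifier and 0 symbols changed. A gene was read at its probe set of highest mean over all 6 arrays. Promoter windows are from RefSeq, GRCm38.p6, 1 per gene, the first listed.

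The members, lists and the choice of the trend fit were made with earlier results of these data known. Named genes were all members, the 5 of smallest unadjusted p per direction in the 4 related and handling lists, and the 5 genes most correlated with the member level. The lists, in all 94 genes, had 87 measured. The fit was tested on simulated data with changes added only to probe sets above the median level, so this does not cover dim members. The sample titles give neither the number of hearts per sample nor the litters, so p-values measure only the spread between these samples. No array pair shared more than 1 identical value. Alternatives were no trend, quantile normalization, median centring, 16 units added before log2, the dimmest 40% left out, array weights, the letter as a block, and each array left out.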

Additional observations from a re-analysis of the deposited data

How the results depend on the processing

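No member probe set was called under any of the alternatives run, and the smallest member adjusted p ranged from 0.16 with the letter as a replicate block to 0.931 without knockout c. The median log2 difference of the 10 genes was 0.29 with 16 units added before log2 and ran from 0.39 to 0.61 with each array left out. Adding units weighs dim values less by construction. The count of probe sets whose groups do not overlap ran from 4 to 7 with each array left out, where fewer arrays make this easier. Those with knockout higher numbered 6, 6 and 4 without knockout a, b and c, and 6, 7 and 6 without wildtype a, b and c. The shares of all probe sets so placed were 11.1%, 12.1% and 10.2%, and 10.6%, 9.43% and 16.1%. After median centring the count was 3, beside 4.84%. Over all probe sets the count called was 14. It was 0 without the trend, where 5.99% had an unadjusted p under 0.05, 25 with array weights and 3 to 24 with each array left out. With the replicate block it was 258, and 2 genes of the related lists, Dusp1 and Hsph1, were called, both lower. The letters were not taken to pair the arrays, as the labels give no pairing. Deviations from the group means over all probe sets correlated at -0.007, 0.05 and 0.0801 for a, b and c, none over 0.1. Dim probe sets of wide spread are included, so these values cannot decide whether arrays of the same letter share an effect. Heat shock levels were lowest in the arrays lettered c in both groups. Knockout b and c correlated best with their own letter, and knockout a with wildtype b. Of 17 member probe sets 12 kept their direction throughout. Egr2 at 1427682_a_at was at -0.07 after quantile normalization and after median centring, -0.02 with 16 units added and -0.47 with array weights, and between -0.85 and 0.84 with each array left out. Atf3 was at -0.06 after quantile normalization, at -0.05 after median centring and between -0.14 and 0.16 with each array left out. With each array left out Nr4a2 ran from -0.16 to 0.19 at 1450750_a_at, from -0.04 to 0.27 at 1455034_at and from -0.69 to 0.20 at 1433422_at. The cause of these changes was not tested. Signal near background limits Fosb and Egr2 most.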
